A study of Rattus norvegicus with 24 samples.

Results

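The most abundant transcripts of the rat left ventricle after a sham operation were followed into infarcted ventricle with and without a heart patch. They were chosen by level: counts were divided by the column total and scaled to counts per 1000000 (CPM), and the 100 gene IDs with the highest mean CPM over the 6 Sham libraries were taken. A list of 7 IDs was left out by the same rule, of which 5 stood among the 100, so that 95 of the 32883 IDs in the table remained. Their Sham level was thus fixed by the choice. All values set beside Sham are given as a description with no test, and tests were kept to the infarct groups, whose libraries played no part in the choice.

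The series held 24 libraries of Sprague Dawley left ventricle, 6 in each of 4 groups. In the Microneedle patch group the infarct received a patch held by microneedles that lock into the tissue, in a design modelled on the honeybee stinger. In the Sutured patch group the patch was fixed with sutures, the MI group is labelled with myocardial infarction alone, and the Sham group with the sham operation alone. Per the labels, RNA came from the infarct region at day 7 after infarction and patch placement, a wording that also stands on the Sham samples. The age of the rats, the loading of the patches, and whether each library came from a separate animal are not stated in the labels, so a p-value here reflects library-to-library spread, which may be technical.

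In heart muscle, the most plentiful messenger RNAs typically encode proteins of the contractile apparatus and of mitochondrial energy supply, along with mitochondrial and secreted products. In an infarct, muscle cells die and are replaced within days by inflammatory cells and then by matrix-producing fibroblasts. RNA of a tissue piece records both the mix of cells and the RNA in each, so fewer cells of a type and less RNA per cell cannot be told apart here. The files used here give Ensembl IDs without symbols, and 0 of the 32883 IDs could be paired with a name. Each transcript is therefore called by its rank in Sham, with the ID printed for 4 of them, and its function is not stated. For the same reason the label of the tissue could not be checked against marker genes. CPM is not divided by transcript length, so a longer transcript gives more reads at the same number of molecules, and ranks compare read numbers only.

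Total counts were 13590783 to 14552623 in Microneedle patch libraries, 12574300 to 14437712 in Sutured patch libraries, 12864218 to 13974505 in MI libraries and 5443782 to 11757562 in Sham libraries. Every Sham library was thus shallower than every infarct library, and depth cannot be told apart from the Sham group. The shallowest Sham libraries were replicate 5, with 5443782 counts, and replicate 3, with 8303319 counts. Sham replicates 4 and 5 had 14079 and 13635 gene IDs with a count, against 16223 to 16449 in the other 4 Sham libraries. For transcripts of this abundance, counting error was small beside the spread between libraries: a level of 1000 CPM stood for 5444 reads in the shallowest library.

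In Sham, the mean level of the 95 transcripts ranged 8.86-fold, between 8664 CPM at rank 1 and 978 CPM at rank 100. The levels were concentrated at the top, with 9 transcripts above 5000 CPM and 31 above 2000 CPM, and the 22 highest carried 50.3% of the summed level. The choice at rank 100 was not a gap in the data. Ranks 99 and 100 had 992 ± 492 and 978 ± 441 CPM, and ranks 101 and 102, just outside, had 976 ± 320 and 956 ± 373 CPM (SD, n = 6 libraries each).

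The Sham levels varied widely from library to library. The coefficient of variation over the 6 Sham libraries had a median of 45.1% over the 95 transcripts, against 35.5% for Sham ranks 101 to 500, and was above 50% for 35 transcripts. The same transcripts had a median coefficient of variation of 23.1% in Microneedle patch, 28.6% in Sutured patch and 26.6% in MI. The choice used the mean of the same 6 Sham values and can take in transcripts raised by 1 high library. The Sham median of the 95 may thus be raised by the choice itself. The most even was rank 36, with a coefficient of 4.58% in Sham. The least even was rank 94, with a coefficient of 97.4%: its Sham values had a lowest of 324, a median of 695 and a highest of 2946 CPM, the highest being replicate 5. Replicate 5 was the highest Sham library for 28 transcripts and the lowest for 36, and replicate 4 was the highest for 22 and the lowest for 28, whereas replicate 2 was the lowest for 0 and replicate 6 for 1. Chosen on the median in place of the mean, 95 transcripts entered of which 88 were the same. Chosen without the shallowest pair of Sham libraries, replicates 3 and 5, 94 entered of which 81 were the same.

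Together the 95 transcripts held 15.4 ± 0.84% of all counts in Microneedle patch, 15.7 ± 1.09% in Sutured patch, 17.3 ± 0.72% in MI and 20.6 ± 1.62% in Sham (SD, n = 6 libraries each). This sum hid opposite movements. Ranks 10 and 51 were set apart after their values were seen. Alone they held 7.22 ± 0.34% of counts in Microneedle patch, 6.68 ± 0.93% in Sutured patch and 7.32 ± 1.28% in MI, against 0.673 ± 0.16% in Sham. The other 93 transcripts held 8.18 ± 0.67% in Microneedle patch, 8.99 ± 0.92% in Sutured patch and 10.01 ± 1.05% in MI, against 19.9 ± 1.55% in Sham. For these 93, every infarct library, between 7.26% and 11.7%, lay below every Sham library, between 17.1% and 21.3%. Over all 95, MI libraries, between 16.5% and 18.5%, overlapped Sham libraries, between 17.6% and 21.9%. The 95 were chosen by Sham level and ranks 10 and 51 were set apart for their rise, so the separation supports nothing.

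**Figure D1:**
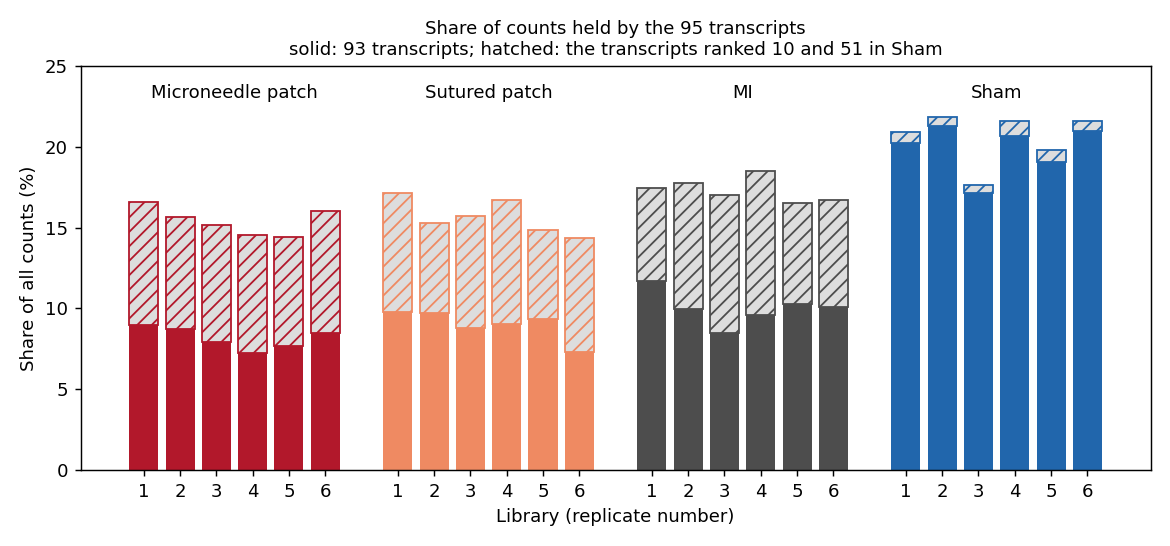
Share of each library's counts, in percent, with 1 stacked bar per library in the order Microneedle patch, Sutured patch, MI and Sham. The solid part stands for 93 transcripts, at 7.26% to 11.7% in the infarct libraries and 17.1% to 21.3% in Sham. The hatched part stands for ranks 10 and 51, set apart after their values were seen, and is small in Sham and large in every infarct library.

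By group mean, most of the transcripts chosen for their Sham level stood outside the 100 highest of each infarct group. The choice was made on Sham, so part of this loss is built in, and nothing is read from it about the infarct. Among the 100 highest by group mean, 25 of the 95 stood in Microneedle patch, 37 in Sutured patch and 38 in MI, and 24 stood among the 100 highest of all 3 infarct groups. In single libraries, 26 to 29 stood among the library's own 100 highest in Microneedle patch, 25 to 39 in Sutured patch, 28 to 50 in MI and 57 to 86 in Sham. The lowest position of any of the 95 by group mean was 9588 in Microneedle patch, 2613 in Sutured patch and 918 in MI. It was taken in each group separately and was not held by the same transcript throughout.

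Set beside Sham, 77 of the 95 had a lower mean in Microneedle patch, 77 in Sutured patch and 78 in MI. The median log2 ratio of group means was -2.34 for Microneedle patch over Sham, -1.75 for Sutured patch over Sham and -1.37 for MI over Sham. Over all genes at 1 CPM or more in either group, the same medians were -0.026, 0.048 and -0.029. At least 4-fold lower means than in Sham were found for 51 transcripts in Microneedle patch, 42 in Sutured patch and 21 in MI, and at least 16-fold lower means for 16, 1 and 0 transcripts in the same order. Separation from Sham was also counted over the 14452 genes with a mean of 1 CPM or more in at least 1 of the 4 groups. The 6 infarct libraries all lay below the 6 Sham libraries for 51 transcripts in Microneedle patch (10.5% of those genes did so). The same held for 37 in Sutured patch (6.64% of those genes) and for 26 in MI (7.42%). Infarct libraries all lay above Sham for 6 transcripts in Microneedle patch (14.9% of those genes), 4 in Sutured patch (14.2%) and 6 in MI (15.9%). Since the highest Sham values were selected, some drop from Sham is built into these figures, and nothing is read from them about the infarct. For 45 transcripts the group means descended in the order Sham, MI, Sutured patch, Microneedle patch. The choice favoured a high Sham mean and the share over all genes was not counted, so nothing is read from this order.

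**Figure D2:**
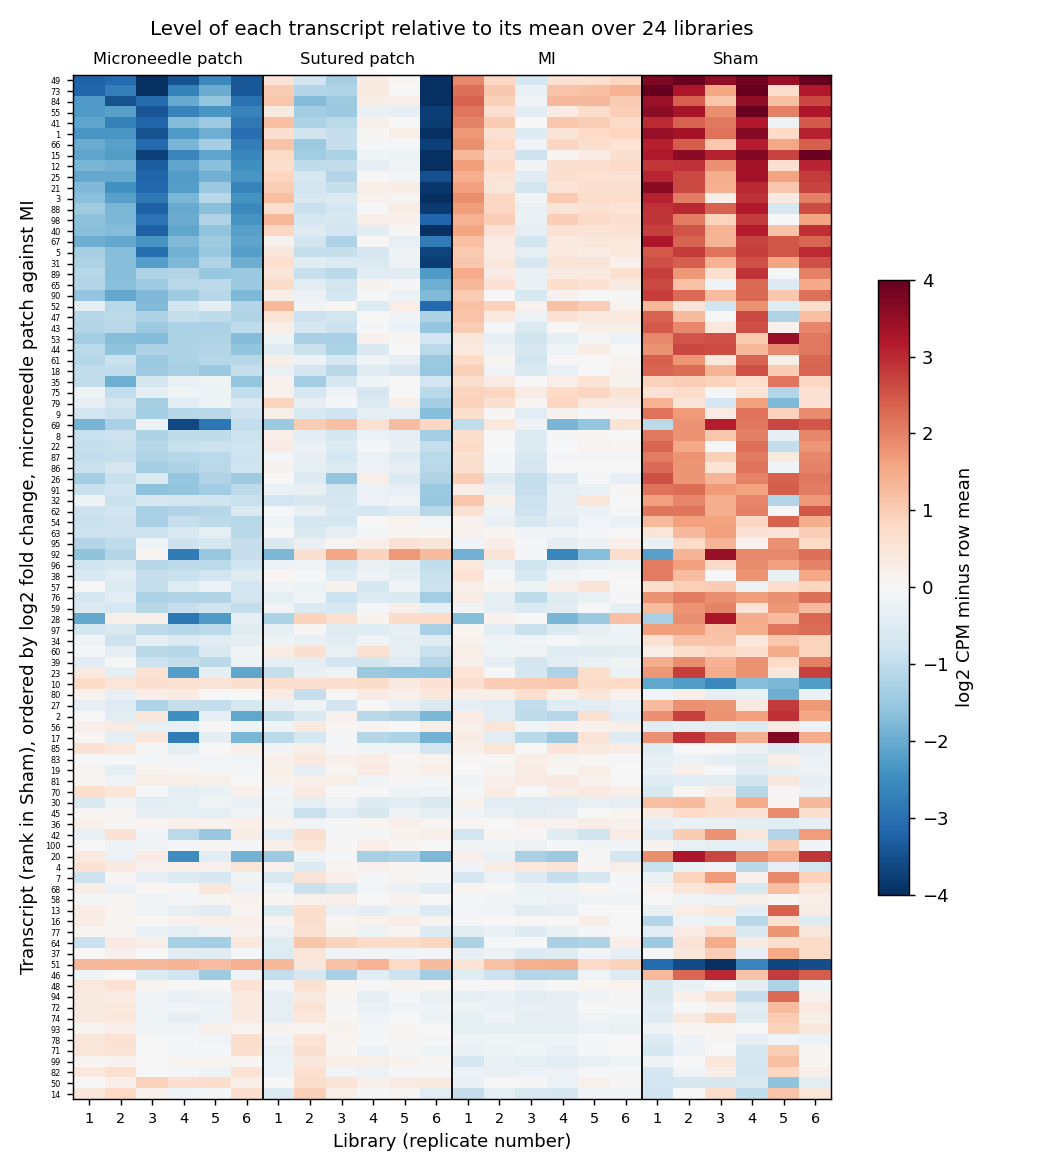
Log2 CPM of each of the 95 transcripts (rows, ordered by the log2 fold change of Microneedle patch against MI) in each of the 24 libraries (columns, by group and replicate), minus the transcript's mean over the 24, with red above and blue below that mean. In the upper rows Sham is mostly red, and the Microneedle patch libraries and Sutured patch replicate 6 are the darkest blue, while ranks 10 and 51 are blue in Sham.

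Ranks 10 and 51 became the highest of the 95 in the infarct. Rank 10 had 31017 CPM at the lowest, 34104 at the median and 38252 at the highest in Microneedle patch. The same 3 values were 28256, 35002 and 37271 in Sutured patch, 35492, 40856 and 46763 in MI, and 3737, 4970 and 6797 in Sham. Every infarct library was above every Sham library, while the 3 infarct groups overlapped. Rank 51 had 35561, 37802 and 40925 CPM in Microneedle patch, 20664, 35700 and 39486 in Sutured patch, 22161, 31368 and 42034 in MI, and 858, 1290 and 2480 in Sham. Its infarct values, too, all lay above Sham, and its Sutured patch and MI values spread more widely than its Microneedle patch values. Between Microneedle patch and MI neither passed the test: rank 10 had a log2 fold change of -0.22 (SE 0.12, adjusted p = 0.149) and rank 51 one of 0.29 (adjusted p = 0.231) in edgeR's quasi-likelihood test with Benjamini-Hochberg adjustment over all genes. With DESeq2 the adjusted p of rank 10 was 0.0385.

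Rank 4 also stayed at the top, at position 3 by group mean in each infarct group. It had 10884, 11883 and 14260 CPM (lowest, median and highest) in Microneedle patch, 6565, 10391 and 10919 in Sutured patch, 9022, 11596 and 13684 in MI, and 4481, 6730 and 8652 in Sham. All MI and Microneedle patch libraries lay above all Sham libraries, and Sutured patch replicate 2 lay within the Sham range. Rank 36, the most even in Sham, had 2717, 2883 and 3070 CPM in Microneedle patch, 2334, 2741 and 2977 in Sutured patch, 2548, 2844 and 3021 in MI, and 1886, 2017 and 2149 in Sham. The infarct groups overlapped each other and none overlapped Sham.

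The comparison of Microneedle patch with MI asks whether the patch that locks into the tissue went with a different transcript pattern than an infarct without a patch, and it uses no Sham library. All 95 transcripts passed the filter on low counts, which was set on the 18 infarct libraries alone, and the fit covered 14296 genes. In Microneedle patch, 48 of the 95 were lower than in MI, or 50.5%, against 13% of all genes tested. Another 7 were higher, or 7.37%, against 18.3% of all genes, and 40 were not called (edgeR's quasi-likelihood test, Benjamini-Hochberg adjusted p below 0.05). The median log2 fold change was -0.60 over the 95 and 0.041 over all genes, and 68.4% of the 95 against 46.6% of all genes were below 0. The 48 that fell had a median log2 fold change of -1.32, between -4.17 and -0.30. Of them, 32 fell by at least 2-fold and 18 by at least 4-fold, and 329 of the 14296 genes were called lower by at least 4-fold. The like count over all genes at 2-fold was not made. For 37 of the 48 the Microneedle patch libraries all lay below the MI libraries. The same libraries gave the calls, so this separation adds no support, and its share over all genes was not counted. The 7 that rose had log2 fold changes of 0.44 to 0.86, none reaching 2-fold. Fold changes came from all ranks: among the 9 members of ranks 1 to 10, 5 fell and 4 were not called, among the 36 of ranks 11 to 50, 18 fell and 2 rose, and among the 50 of ranks 51 to 100, 25 fell and 5 rose. Of the 48, 39 were called lower in all 27 alternative fits, and of the 7 that rose 1 was called higher in all of them.

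**Figure D3:**
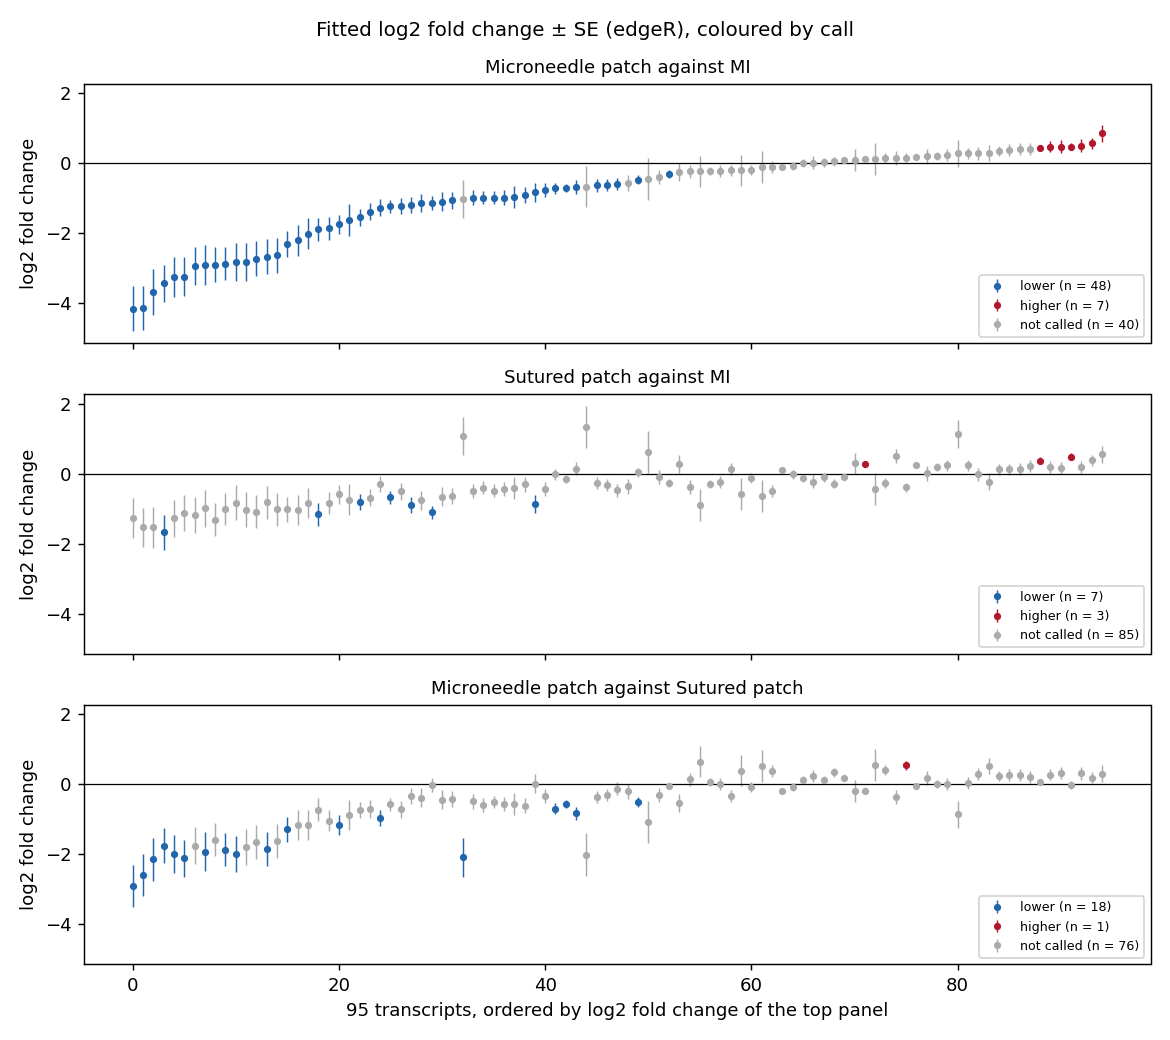
Fitted log2 fold change with its SE (edgeR) of the 95 transcripts in the 3 comparisons between infarct groups, 1 point per transcript, all panels ordered by the fold change of the first and coloured by call at an adjusted p below 0.05. Microneedle patch against MI shows 48 transcripts called lower and 7 higher, Sutured patch against MI 7 and 3, and Microneedle patch against Sutured patch 18 and 1.

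The largest drops were at ranks 49 and 73. Rank 49, ENSRNOG00000055450, had 2.33, 10.2 and 17.1 CPM (lowest, median and highest) in Microneedle patch, 3.60, 83.8 and 145 in Sutured patch, 63.4, 169.7 and 389 in MI, and 1088, 1412 and 2448 in Sham. Each Microneedle patch library was below each MI library, Sutured patch overlapped both, and no infarct library reached the Sham range. The log2 fold change of Microneedle patch over MI was -4.17 (SE 0.64, adjusted p = 0.000566 in edgeR's quasi-likelihood test with Benjamini-Hochberg adjustment), lower in 6 of 6 libraries. Over the 27 alternative fits, those with a library left out included, its adjusted p lay between 9.13e-10 and 0.002025. Rank 73, ENSRNOG00000016837, had 6.64, 15.5 and 29.9 CPM in Microneedle patch, 5.75, 85.7 and 241 in Sutured patch, 100.1, 267 and 552 in MI, and 195, 1110 and 2066 in Sham. Again the Microneedle patch and MI libraries did not overlap, while MI overlapped Sham, whose lowest value was replicate 5. Its log2 fold change over MI was -4.13 (SE 0.63, adjusted p = 0.000551, edgeR), lower in 6 of 6 libraries. In all 3 infarct groups the library order of ranks 49 and 73 was similar at its ends: MI replicate 1 was highest and MI replicate 3 lowest, Sutured patch replicate 1 was highest and replicate 6 lowest, and Microneedle patch replicate 5 was highest and replicate 3 lowest.

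The largest increases were at ranks 14 and 50. Rank 14, ENSRNOG00000047931, had 3241, 4382 and 6028 CPM in Microneedle patch, 2462, 3593 and 6747 in Sutured patch, 1841, 2477 and 3225 in MI, and 1748, 4148 and 7662 in Sham. All 6 Microneedle patch libraries lay above the highest MI library, the lowest of them narrowly, and the Sham range took in all other groups. The log2 fold change over MI was 0.86 (SE 0.24, adjusted p = 0.0136, edgeR), and with all 24 libraries in the fit the adjusted p was 0.0674. Rank 50, ENSRNOG00000000571, had 2467, 3473 and 4734 CPM in Microneedle patch, 2501, 3218 and 4048 in Sutured patch, 2072, 2519 and 2836 in MI, and 824, 1605 and 1848 in Sham. In Microneedle patch 5 of 6 libraries were above every MI library, and every infarct library was above every Sham library. Its log2 fold change over MI was 0.57 (SE 0.16, adjusted p = 0.0116, edgeR).

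**Figure D4:**
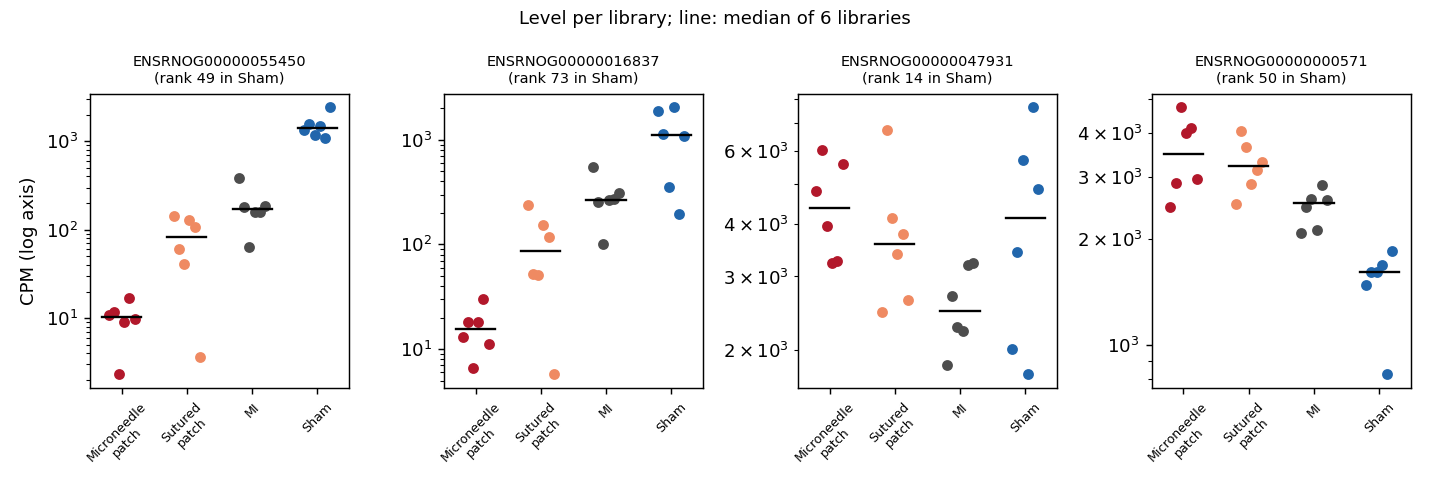
CPM on a log axis of the 4 transcripts with the largest changes each way between Microneedle patch and MI (ranks 49, 73, 14 and 50), 1 point per library with the median as a line. Ranks 49 and 73 lie below 30 CPM in every Microneedle patch library and above 60 CPM in every MI library.

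Among the leading ranks, 1, 3 and 5 behaved alike. Rank 1 had 96.3, 215 and 276 CPM in Microneedle patch, 51.4, 864 and 1712 in Sutured patch, 753, 1750.1 and 3602 in MI, and 1864, 9915 and 13273 in Sham. Its position by group mean was 833 in Microneedle patch, 96 in Sutured patch and 30 in MI. The Microneedle patch and MI libraries did not overlap, and the log2 fold change was -3.25 (SE 0.55, adjusted p = 0.000816, edgeR). Rank 3 had 227, 418 and 768 CPM in Microneedle patch, 104, 1465 and 3784 in Sutured patch, 1554, 2842 and 5998 in MI, and 1970, 6769 and 14014 in Sham. Rank 5 had 128, 295 and 413 CPM in Microneedle patch, 78.6, 594 and 1409 in Sutured patch, 795, 1312 and 2120 in MI, and 4628, 6358 and 8207 in Sham. Both lay without overlap below MI in Microneedle patch, with log2 fold changes of -2.82 for rank 3 (adjusted p = 0.00136, edgeR) and -2.21 for rank 5 (adjusted p = 0.00173, edgeR). Sutured patch replicate 6 was the lowest library of the 18 for each of these 3 transcripts.

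Rank 2 did not follow them. It had 301, 1241 and 2229 CPM in Microneedle patch, 474, 804 and 1843 in Sutured patch, 741, 1198 and 2477 in MI, and 4811, 5752 and 12480 in Sham. The 3 infarct groups overlapped throughout, none reached the Sham range, and Microneedle patch over MI had a log2 fold change of -0.20 (SE 0.45, adjusted p = 0.757, edgeR). Ranks 17, 20 and 23, picked after their values were seen, shared its order of libraries in the infarct: in each of these 4 transcripts Microneedle patch replicates 1 and 3 were the highest of their group and replicate 4 the lowest, Sutured patch replicate 3 was the highest of its group, and MI replicate 4 was the lowest of its group. In Sham they parted. Replicate 5 was the highest Sham library for ranks 2 and 17, with 12480 and 7464 CPM, and the lowest for ranks 20 and 23, with 1629 and 917 CPM.

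The comparison of Sutured patch with MI asks the same of the sutured patch. Of the 95 transcripts, 7 were lower in Sutured patch, against 5.40% of all genes, 3 were higher, against 10.2% of all genes, and 85 were not called (edgeR, as above). The share of the 95 called lower was 7.37%. This share moved with the fit more than that of all genes did: it was 22.1% against 8.89% of all genes with DESeq2, 23.2% against 9.33% with limma-voom, 30.5% against 9.49% without Sutured patch replicate 1, and 2.11% against 1.67% with all 24 libraries in the fit. The median log2 fold change was -0.32 over the 95 and 0.023 over all genes, and 70.5% of the 95 against 47.8% of all genes were below 0. The 7 had log2 fold changes of -1.68 to -0.67 and the 3 of 0.29 to 0.49. The count of lower calls rested on single libraries. It was 29 without Sutured patch replicate 1. Without MI replicate 3 it was 12, or 12.6% against 5.55% of all genes. It was 4 without Sutured patch replicate 2, or 4.21% against 4.28% of all genes. Without Sutured patch replicate 3 it was 3, or 3.16% against 3.39%, and without MI replicate 1 it was 2, or 2.11% against 3.13%. In the fits with 4, 3 and 2 lower calls the share of the 95 thus lay below that of all genes. The count of lower calls was 2 with all 24 libraries in the fit, 21 with DESeq2 and 22 with limma-voom.

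Rank 75 was lower in both patch groups than in MI. It had 440, 714 and 781 CPM in Microneedle patch, 417, 651 and 985 in Sutured patch, 1101, 1549 and 1637 in MI, and 390, 1275 and 1473 in Sham. Neither patch group overlapped MI, and the patch groups overlapped each other. Log2 fold changes over MI were -1.13 for Microneedle patch (SE 0.20, adjusted p = 0.000931, edgeR) and -1.11 for Sutured patch (SE 0.20, adjusted p = 0.00182, edgeR), each with 6 of 6 libraries below MI. It was the 1 transcript of the 7 that was called lower in Sutured patch against MI in all 27 alternative fits.

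The comparison of Microneedle patch with Sutured patch sets the ways of fixing the patch beside each other. In Microneedle patch, 18 of the 95 were lower than in Sutured patch, against 2.60% of all genes, 1 was higher, against 2.90% of all genes, and 76 were not called (edgeR, as above). The median log2 fold change was -0.34 over the 95 and -0.013 over all genes, and 66.3% of the 95 against 51.6% of all genes were below 0. The 18 that fell had log2 fold changes of -2.91 to -0.51. Of them, 13 fell by at least 2-fold and 5 by at least 4-fold, and 72 of all genes tested were called lower by at least 4-fold. For 0 of the 18 did all Microneedle patch libraries lie below all Sutured patch libraries. The like counts over all genes at 2-fold and without overlap were not made. Rank 49 had the largest drop, with a log2 fold change of -2.91 (SE 0.61, adjusted p = 0.0187, edgeR), followed by rank 73 with -2.60 (SE 0.59, adjusted p = 0.0237, edgeR). The adjusted p of rank 49 was 0.0600 when only these groups were fitted. Rank 1 had a log2 fold change of -2.12 (SE 0.52, adjusted p = 0.0314, edgeR). The 1 that rose was rank 68, with 687, 851 and 1116 CPM in Microneedle patch and 434, 639 and 759 in Sutured patch, a log2 fold change of 0.55 (SE 0.13, adjusted p = 0.0279, edgeR).

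These calls, like those over all genes, depended on which libraries entered the fit. The 18 became 1 with all 24 libraries, or 1.05% against 0.172% of all genes. They became 0 when only the Microneedle patch and Sutured patch libraries were fitted, against 0.173% of all genes. In that fit edgeR gave 39 of the 95 an unadjusted p below 0.05 in the lower direction and 4 in the higher. DESeq2 on the 18 libraries called 32 lower, or 33.7% against 5.55% of all genes, and limma-voom 12, or 12.6% against 1.66%. Leaving out Sutured patch replicate 6 brought 37 lower calls, or 38.95% against 4.65% of all genes. Leaving out Sutured patch replicate 4, 5 or 1 brought 2, 3 or 7, against 0.479%, 0.542% or 1.35% of all genes. Leaving out Microneedle patch replicate 1, 2, 3, 4 or 6 brought 3, 5, 6, 10 or 3. The shares of all genes there were 0.535%, 0.903%, 1.02%, 2.01% and 0.709%. Without MI replicate 2 there were 10, against 1.43% of all genes. None of the 18 was called in every alternative.

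Rank 69, also among the 18, spread over the Sutured patch libraries in another way. It had 18.8, 80.2 and 202 CPM in Microneedle patch, 84.1, 444 and 547 in Sutured patch, 65.5, 166 and 335 in MI, and 111, 1164 and 2061 in Sham. Sutured patch replicate 1 alone lay within the Microneedle patch range, and the other 5 lay above it. The log2 fold change of Microneedle patch over Sutured patch was -2.09 (SE 0.56, adjusted p = 0.0404, edgeR). Rank 92, picked after its values were seen, ran alongside, with 33.4, 91.6 and 248 CPM in Microneedle patch, 66.4, 496 and 764 in Sutured patch, 37.7, 147 and 376 in MI, and 50.8, 873 and 2576 in Sham. Sutured patch replicate 1 and Sham replicate 1 were the lowest of their groups for both transcripts, and Sham replicate 3 the highest of its group.

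Single libraries moved together over many of the 48 transcripts that fell in Microneedle patch against MI. MI replicate 1 was the highest MI library for 43 of the 48, and MI replicate 3 the lowest for 44. In Sutured patch, replicate 1 was the highest for 37 and replicate 6 the lowest for 40. Sutured patch replicate 6 lay within or below the Microneedle patch range for 43 of the 48. In Microneedle patch, replicate 3 was the lowest for 31. The like counts over all genes were not made, so these are not read as a trait of the 48. The count of 48 changed little when any of these libraries was left out, lying between 45 and 49 over all 18 libraries left out in turn.

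The transcripts were also grouped by how the shallowest Sham libraries, replicates 3 and 5, stood to the other 4. The grouping rests on Sham values that the choice of transcripts used and was added after the data were seen, so it is a description and supports nothing. Both libraries lay below the other 4 for 40 of the 95 transcripts, above them for 15, and neither for 40. Over the 14296 genes tested the same counts were 1740, 1997 and 10559. Of the 40 that were lower in the shallowest Sham libraries, 35 fell in Microneedle patch against MI, or 87.5%, 0 rose and 5 were not called. Over all genes tested, 1740 had this Sham pattern, and 38% of them fell and 5.52% rose. The median log2 fold change was -1.58 over the 40 and -0.37 over the 1740 genes. None of the 40 had an unadjusted p below 0.05 in the higher direction in edgeR, DESeq2 or limma-voom. Of the 15 that were higher in the shallowest Sham libraries, 2 fell, 4 rose and 9 were not called, and of the 1997 genes with that pattern 6.61% fell and 23.9% rose. Of the remaining 40, 11 fell, 3 rose and 26 were not called, beside 10.1% and 19.3% of 10559 genes. The part of depth or RNA quality in these values was not tested.

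**Figure D5:**
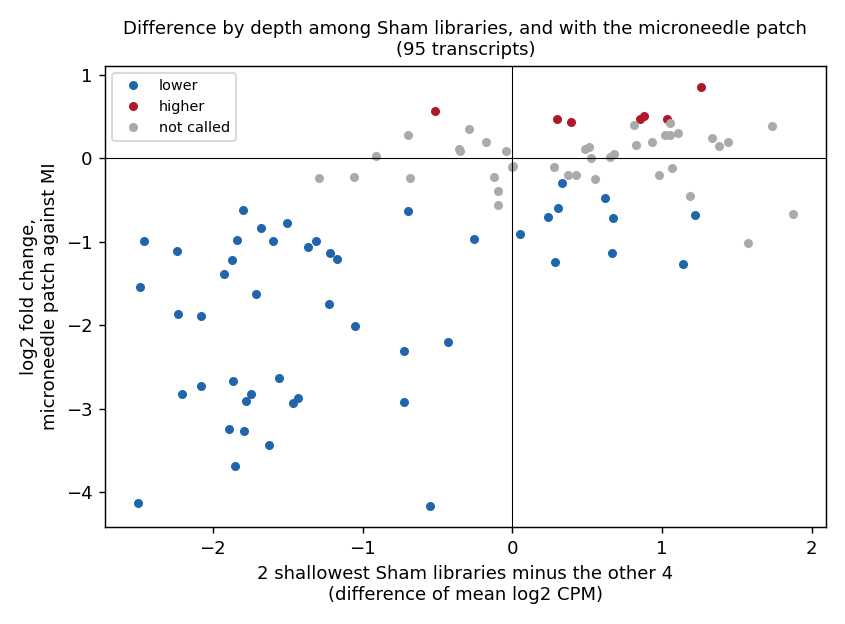
For each of the 95 transcripts, the difference of mean log2 CPM between the 2 shallowest Sham libraries and the other 4 (horizontal) and the log2 fold change of Microneedle patch against MI (vertical), coloured by call at an adjusted p below 0.05. Of the 40 transcripts with both shallowest Sham libraries below the other 4, 35 are called lower in Microneedle patch, against 38% of the 1740 genes with that Sham pattern. The grouping was added after the data were seen and rests on Sham values that the choice used, so it supports nothing.

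The difference between the patch groups was also set beside the ratio of MI over Sham. That ratio holds the Sham mean by which the transcripts were chosen, so the values are a description and support nothing. Over the 95 transcripts, the log2 ratio of MI over Sham and the log2 fold change of Microneedle patch over Sutured patch had a Pearson correlation of 0.45, and over 14231 genes tested it was 0.27. Transcripts and genes are not independent replicates. The 21 transcripts at or below 0.25 of their Sham mean in MI had a median log2 fold change of Microneedle patch over Sutured patch of -0.61, against -0.50 for the 319 genes in that range, and 7 were called lower, or 33.3%, against 19.4% of those genes. The 37 between 0.25 and 0.5 of Sham had a median of -0.70, against -0.24 for 1315 genes, with 9 called lower, or 24.3%, against 10.8% of the genes. The 20 between 0.5 of Sham and its level had a median of -0.0050, against -0.016 for 5485 genes. Of them 2 were called lower, or 10%, against 2.26% of the genes, and 1 higher, or 5%, against 1.6%. The 17 above Sham in MI had a median of 0.14, against 0.033 for 7112 genes. Of them 0 were called lower, against 0.591% of the genes, and 0 higher, against 4.44%. Of these 17, edgeR gave 1 an unadjusted p below 0.05 in the lower direction and 3 in the higher. DESeq2 and limma-voom also called 0 lower, while DESeq2 called 2 higher and limma-voom 0.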

How the data were processed

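The deposited table holds raw counts, whole numbers per Ensembl gene ID with 1 column per library, not normalized and not pooled by the authors. HISAT2 and featureCounts, with the build rn6, are named in the submitters' processing notes. For their versions, the annotation, strand and reads with several matches, nothing is given in the sources used, so near-identical, overlapping or antisense genes may share reads. Trizol extraction of total RNA and a NEBNext Ultra library kit are given in the labels' protocols.

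From the counts, CPM was computed on column totals. The 18 infarct libraries were fitted with edgeR 4.0.16 (R 4.3.3): filterByExpr, TMM scaling, 1 mean per group, robust quasi-likelihood test, Benjamini-Hochberg adjustment over 14296 genes, threshold 0.05, 15 residual degrees of freedom. SE is the log2 fold change over the square root of F. Alternatives were all 24 libraries, only the groups compared, RLE or total-count scaling, other filters, a replicate block, DESeq2 1.42.0, limma-voom 3.58.1 with quality weights, each library left out, and other choices of transcripts.

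The transcripts and lists were chosen with earlier results of these data known. IDs were printed for the 2 called transcripts each way with the largest change between Microneedle patch and MI. Others in the text are the highest ranks, the largest changes, the extremes of Sham spread, and those said to be picked later. Gene and marker lists were not run, for want of symbols (0 of 32883 IDs paired). Same-numbered libraries were not treated as pairs.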

Additional observations from a re-analysis of the deposited data

Results flagged for a closer look

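For the transcripts described singly and the shares of counts, 92 groups of 6 libraries were examined for a library far from the other 5. The measure was its gap to the nearest library over the range of the group, and 5 were set apart, all in single transcripts. Chance alone sets apart about 1 in 20 such groups. Rank 4 was lowest in Sutured patch replicate 2, at 6565 CPM. Rank 49 was highest in MI replicate 1, at 389 CPM, with a gap barely over the limit, and highest in Sham replicate 6, at 2448 CPM. Rank 50 was lowest in Sham replicate 5, at 824 CPM, and rank 94 was highest in Sham replicate 5, at 2946 CPM. Sham replicate 5 was the shallowest library of the series.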

How the results depend on the processing

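For Microneedle patch against MI, lower calls stayed between 40 and 50 in every alternative fit. Higher calls were 1 with all 24 libraries and between 4 and 11 with a library left out, against 7. Lower and higher calls together lay between 49 and 60 with a library left out. For Sutured patch against MI, all 24 libraries gave 2 lower and 0 higher calls (2 together; edgeR unadjusted p below 0.05: 26 lower, 3 higher), the replicate block 25 and 7 (32 together), DESeq2 21 and 5 (26 together), limma-voom 22 and 5 (27 together), and total-count scaling 5 higher. With a library left out, lower calls were 2 to 29, higher calls 2 to 7, and both together 4 to 36. For Microneedle patch against Sutured patch, lower calls were 1 with all 24 libraries, 0 with only these groups, 7 without a filter (8 together) and 32 with DESeq2 (35 together). Higher calls were 0 with all 24 libraries, with only these groups and with total-count scaling (edgeR unadjusted: 3, 4 and 2), and 3 with DESeq2. With a library left out, lower calls were 2 to 37, higher calls 0 to 2, and both together 3 to 38. Calls over all genes moved as well. In Microneedle patch against Sutured patch they were 786 with edgeR on the 18 infarct libraries and 46 with all 24 libraries. They were 58 with only these groups and 1625 with DESeq2. In Sutured patch against MI they were 2229 with edgeR on the 18 libraries, 661 with all 24 libraries and 3149 with limma-voom. The cause of these differences was not tested.

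Same-numbered libraries were not treated as pairs, since the labels name nothing they share and 11 of 18 pairs, not all, correlated above 0.1 (range -0.064 to 0.42). The best match had the same number in 13 of 36 cases, where picking at random would give 6. The 36 cases are not independent of each other, and whether same-numbered libraries share a factor was not tested. With the replicate block, calls over all genes were 5176 against 4472 without it in Microneedle patch against MI, 3060 against 2229 in Sutured patch against MI, and 1160 against 786 in Microneedle patch against Sutured patch. Among the 95, the block gave 48 lower and 7 higher calls in Microneedle patch against MI, and 27 and 1 in Microneedle patch against Sutured patch.

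With other choices of transcripts, the percent called lower in Microneedle patch against MI lay between 41.8 and 61.7. The percent called higher there was 3.19 without Sham replicates 3 and 5 (chosen after seeing the data), 4.44 for the 50 highest and 15.5 for the 200 highest. In Sutured patch against MI it was 5.16 for the 200 highest and 0 for the 4 other choices, and in Microneedle patch against Sutured patch 0 without Sham replicates 3 and 5 and for the 50 highest. The 50 highest held 8.85% of counts in Microneedle patch, 9.24% in Sutured patch, 10.7% in MI and 14.8% in Sham, and the 200 highest 21.2%, 21.4%, 22.99% and 28.1% in the same order. With a library left out, the shares lay between 15.2% and 15.6%, 15.4% and 15.95%, 17.1% and 17.5%, and 20.3% and 21.2% in that order. Rank 2 in Microneedle patch against MI had log2 fold changes of -0.48 to 0.032 with a library left out and changed sign without MI replicate 5 (log2 0.032) and without Microneedle patch replicate 4 (0.0074), uncalled in both. Depth limited Sham most, at 5443782 to 11757562 counts.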
